A study of Mus musculus with 6 samples.

Results

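The 8 genes described here encode mesenchymal transcription factors, the paired-related homeobox proteins (Prrx1 and Prrx2), the Twist proteins (Twist1 and Twist2), the Snail proteins (Snai1 and Snai2) and the zinc finger E-box-binding homeobox proteins (Zeb1 and Zeb2). They were taken by symbol from the 23420 gene symbols of the count table. The set was proposed from earlier results on these same libraries, so the values of its members are a description and carry no test. Of the 8 members, 5 had reads and passed the filter on low counts that left 11608 genes in the fit, and 3 (Prrx2, Twist1 and Twist2) had a count of 0 in every library. Prrx1 passed the filter through its reads in the wild-type group alone. Gene expression was measured by RNA-seq of ribosomal RNA-depleted total RNA in eEnd2 cells, a mouse embryonic endothelial line, with 3 confluent cultures in each of 2 groups and no further treatment. Both groups had been transfected with human integrin β1A tagged with eGFP in its extracellular part and driven by a short human β-actin promoter with a chicken lysozyme matrix attachment region. In one group the chimera was wild type (β1-WT-GFP, abbreviated WT), and in the other a lysine of the cytoplasmic tail was replaced by glutamine, which mimics its acetylation (β1-K794Q-GFP, abbreviated K794Q). Cells were sorted for GFP, as a low and a high population, and sub-cultured. The labels do not say which population each culture came from, and there was no untransfected group. The comparison of K794Q with WT cultures addressed how a β1 integrin that mimics acetylation relates to transcript levels in endothelial cells.

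These proteins bind DNA and set the identity of connective tissue precursors in the embryo. Snail and Zeb proteins are zinc finger repressors that bind E-box sequences of the CAGGTG kind, for example in the E-cadherin gene Cdh1. Twist proteins are basic helix-loop-helix factors that pair with E proteins, and Prrx proteins are homeodomain factors of limb, craniofacial and vascular mesenchyme. Together they are known for driving epithelial-to-mesenchymal transition, and in endothelium for the related change in which cells loosen their junctions and take up mesenchymal genes.

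Total counts per library were 9589826 to 15287191, and a count of 0 allows up to 3 counts, which is 0.209 to 0.300 CPM (normalized counts scaled to the library total) in these libraries, for counting error only. Within groups, WT culture C stood apart from WT A and B, with 2882 and 2728 genes differing 2-fold or more, compared with 148 for the pair A and B. K794Q culture B stood apart from A and C, with 2126 and 2707 such genes, compared with 1021 for A and C. Of 20 endothelial markers, all were tested and 17 had more than 3 counts in every library, with the junction protein genes Pecam1 at 1777 to 2815 CPM and Cdh5 at 1293 to 3989 CPM. The exceptions were the claudin gene Cldn5, at 267, 252 and 4.73 CPM in WT A, B and C and 17.5, 0 and 24.2 CPM in K794Q A, B and C, Sox17, with 3 counts in K794Q B, and Vwf, with 3 counts in WT A. Markers of pericytes and smooth muscle passed the filter in 0 of 10 cases, and their summed level was 1.44, 1.48 and 2.83 CPM in K794Q A, B and C and 0.349, 0.499 and 4.17 CPM in WT A, B and C. The pericyte genes Rgs5, Des and Kcnj8 were at 0 throughout. Of 8 leukocyte markers only the lysosomal protein gene Cd68 was tested, and 3 had 0 counts in every library. Csf1r, a receptor gene of myeloid cells, did not pass the filter. It was at 10.6 CPM in WT C and at 0.385 to 0.773 CPM in the other cultures. In bulk libraries, fewer cells expressing a gene and less RNA per cell cannot be told apart.

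The sequence around the start of Prrx1 is shown first because this member differed most between the groups, next to that of its silent paralogue Prrx2 and that of Snai1, whose level varied most among the cultures of each group. Each window runs from 250 bases before to 50 after the RefSeq gene start in GRCm38.p6, 5′ to 3′ on the strand of the gene, with CG dinucleotides in capitals.
Prrx1 promoter, chr1:163313601-163313900, minus strand: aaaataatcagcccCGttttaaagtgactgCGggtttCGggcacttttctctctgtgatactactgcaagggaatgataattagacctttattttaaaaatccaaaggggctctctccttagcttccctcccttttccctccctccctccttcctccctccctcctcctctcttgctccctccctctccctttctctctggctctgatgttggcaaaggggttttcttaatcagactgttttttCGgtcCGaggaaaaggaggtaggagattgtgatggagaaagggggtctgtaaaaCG
Prrx2 promoter, chr2:30845117-30845416, plus strand: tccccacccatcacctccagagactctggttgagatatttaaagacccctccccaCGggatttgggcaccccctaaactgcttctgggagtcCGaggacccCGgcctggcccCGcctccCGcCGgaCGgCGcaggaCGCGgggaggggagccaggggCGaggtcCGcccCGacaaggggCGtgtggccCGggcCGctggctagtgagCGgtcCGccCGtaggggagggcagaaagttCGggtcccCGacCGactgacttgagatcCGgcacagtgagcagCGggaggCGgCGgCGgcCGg
Snai1 promoter, chr2:167537945-167538244, plus strand: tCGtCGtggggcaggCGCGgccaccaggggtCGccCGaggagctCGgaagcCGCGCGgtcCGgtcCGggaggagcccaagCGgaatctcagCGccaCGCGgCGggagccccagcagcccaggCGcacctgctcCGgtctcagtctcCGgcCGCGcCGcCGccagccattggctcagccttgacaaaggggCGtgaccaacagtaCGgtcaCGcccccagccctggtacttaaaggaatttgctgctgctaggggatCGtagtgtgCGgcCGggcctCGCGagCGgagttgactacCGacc
The Prrx1 window held 6 CG, close to the median of 7 over 32544 distinct windows of 300 bases, and 43.2% of windows held fewer. The Prrx2 window held 28 CG and the Snai1 window 34. The windows of Twist1 and Twist2 held 27 and 25 CG, and the 4 windows of Zeb2 held 8 to 19. The E-box CAGGTG or its reverse complement CACCTG was found once in the Snai1 window and in none of the other windows of Prrx1, Prrx2, Twist1, Twist2 and Zeb2. It occurs in 20.3% of all windows. Methylation and binding were not measured, so these counts describe the sequence only.

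Prrx1, a homeodomain activator of mesenchymal and matrix genes, was abundant in β1-WT-GFP cells and nearly without reads in β1-K794Q-GFP cells. The gene lies at chr1:163245119-163313710 on the minus strand (GENCODE M21, GRCm38). Its counts were 2097, 1936 and 812 in WT A, B and C, or 183, 193 and 56.5 CPM. In K794Q A, B and C the counts were 1, 1 and 0, or 0.0962, 0.0986 and 0 CPM. The groups did not overlap, and WT C lay at 0.300 times the mean of WT A and B. Summed over cultures, the WT level was 2176 times the K794Q level, with an exact 95% interval of 602 to 17971 from the 4845 and 2 counts, which covers counting error only. Set against WT C alone, the lowest of the WT cultures, the ratio was 909 (251 to 7518). Read per length, Prrx1 stood above 73.7% of 10933 tested genes with a known length in WT A, above 75.1% in WT B and above 38.0% in WT C. In the K794Q libraries 12 tested genes had 2 counts or fewer in sum, and Prrx1 had the highest WT level of these, 144 ± 76.2 CPM (mean ± SD, n = 3). Next came Ttll7, a tubulin polyglutamylase, with a WT mean of 38.9 CPM.

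Prrx1 was the only member past both of the thresholds used for calling genes, a fold change threshold of 2 together with a threshold of 0.05 on the unadjusted p of edgeR's quasi-likelihood test. That was 1 of 5 tested members, against 5.19% of all tested genes, of which 3.48% were higher and 1.71% lower in K794Q cells. It was also the only member whose groups did not overlap, against 16.6% of all tested genes. As the members were chosen on this contrast, nothing is read from these shares.

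**Figure D1:**
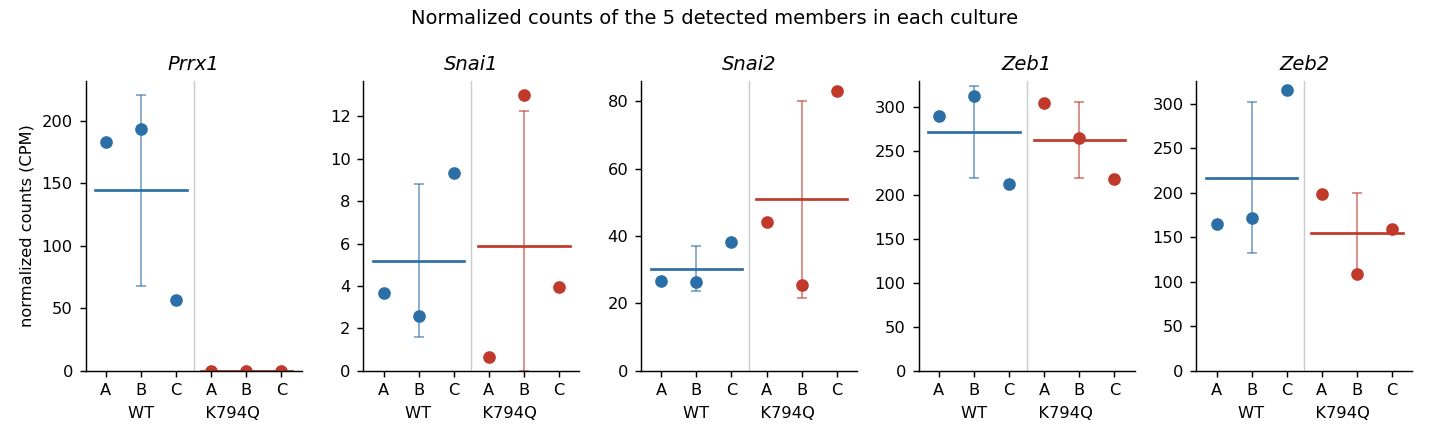
Normalized counts (CPM, linear axes from 0) of the 5 members with reads in each culture, WT in blue and K794Q in red. Points are single cultures, horizontal lines group means and bars SD (n = 3, cut at 0); Prrx1 lies at 56.5 to 193 CPM in WT and at or below 0.0986 CPM in K794Q, while the groups overlap for the other members.

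Prrx2, which shares the homeodomain of Prrx1 and acts beside it in the embryo, had 0 counts in all 6 libraries. The same held for Twist1, a regulator of mesoderm and neural crest, and for Twist2, a factor of the dermis. For each of the 3, the level was therefore at most 0.209 CPM in the deepest library and 0.300 CPM in the shallowest after normalization. Neither group gave a read for the paralogue of Prrx1, so no fold is defined.

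Snai1, a repressor of Cdh1 and an early gene of endothelial-to-mesenchymal transition, was low and irregular. It was at 3.67, 2.60 and 9.32 CPM in WT A, B and C and at 0.673, 13.0 and 3.95 CPM in K794Q A, B and C. The highest and the lowest of the 6 values were both K794Q cultures, 19.3-fold apart, and the groups overlapped. The log2 fold change (K794Q over WT, as in all that follows) was 0.17 ± 1.00 (SE). It ranged from -1.17 without K794Q B to 0.91 without WT C, so the data give no direction.

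Snai2, which encodes Slug, was at 26.6, 26.3 and 38.1 CPM in WT A, B and C and at 44.1, 25.5 and 83.0 CPM in K794Q A, B and C. K794Q A and C lay above every WT culture, and K794Q B lay below all of them. The log2 fold change was 0.75 ± 0.44 (SE). Without K794Q B it was 1.07 and Snai2 passed both thresholds as a second member, and without K794Q C it was 0.20.

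Zeb1 was the most even member. It was at 290, 313 and 213 CPM in WT A, B and C and at 305, 265 and 218 CPM in K794Q A, B and C. All 6 values lay within 1.47-fold of each other, and the log2 fold change was -0.05 ± 0.23 (SE), with a range of -0.19 to 0.07 when single cultures were left out. Zeb2, the other zinc finger homeobox repressor, was at 165, 172 and 315 CPM in WT A, B and C and at 198, 109 and 159 CPM in K794Q A, B and C. WT C was 1.88 times the mean of WT A and B, K794Q B was 0.610 times the mean of K794Q A and C, and the groups overlapped. The log2 fold change of Zeb2 was -0.48 ± 0.35 (SE) and came to -0.10 without WT C.

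**Figure D2:**
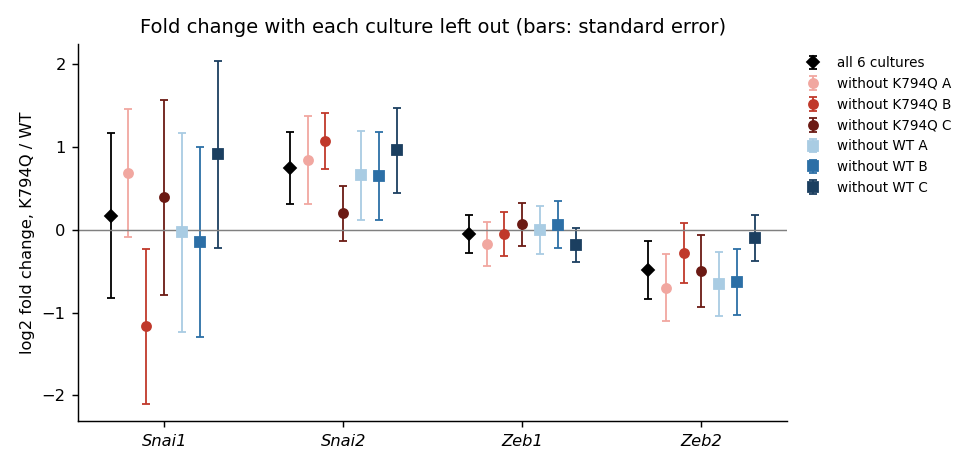
Log2 fold change (K794Q over WT) of Snai1, Snai2, Zeb1 and Zeb2 from the fit to all 6 cultures (black) and with each culture left out (circles: a K794Q culture; squares: a WT culture), with bars of 1 standard error. Snai1 runs from -1.17 to 0.91 across 0, Snai2 stays above 0 and Zeb1 lies within 0.19 of 0 in every fit.

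The cultures that stood apart did so in different directions for different members. WT C had the lowest WT level of Prrx1 and Zeb1, and the highest WT level of Snai1, Snai2 and Zeb2. K794Q B had the highest K794Q level of Snai1 and the lowest of Snai2 and Zeb2. The ratio of WT A to WT B was 0.948 for Prrx1, 1.01 for Snai2, 0.926 for Zeb1 and 0.960 for Zeb2, and 1.41 for Snai1. Over the 6 cultures, Pearson's r of log2 CPM with Prrx1 was 0.09 for Snai1, -0.57 for Snai2, 0.22 for Zeb1 and 0.41 for Zeb2. These 4 values describe 6 cultures in 2 groups and share the libraries.

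Levels were set side by side per kb of annotated exon (CPM per kb). In WT cells the order was Zeb1 (mean 26.5, 20.8 to 30.5), Snai2 (13.0 to 18.9), Prrx1 (mean 13.0, 5.10 to 17.5), Zeb2 (mean 10.9, 8.25 to 15.8) and Snai1 (1.60 to 5.75). Zeb1 lay clear of Snai2 there and Zeb2 lay clear of Snai1, while Snai2 overlapped with Prrx1 and Prrx1 with Zeb2. In K794Q cells the order was Zeb1 (25.6), Snai2 (25.2), Zeb2 (7.79), Snai1 (3.63) and Prrx1 (0.00587). Here Zeb1 and Snai2 overlapped, Snai2 and Zeb2 did not, and Zeb2 and Snai1 overlapped because K794Q B had 5.46 CPM per kb of Zeb2 and 8.03 of Snai1. Prrx1 thus stood in the middle of the order in WT cells and last in K794Q cells, and the other 4 kept the same order of means.

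**Figure D3:**
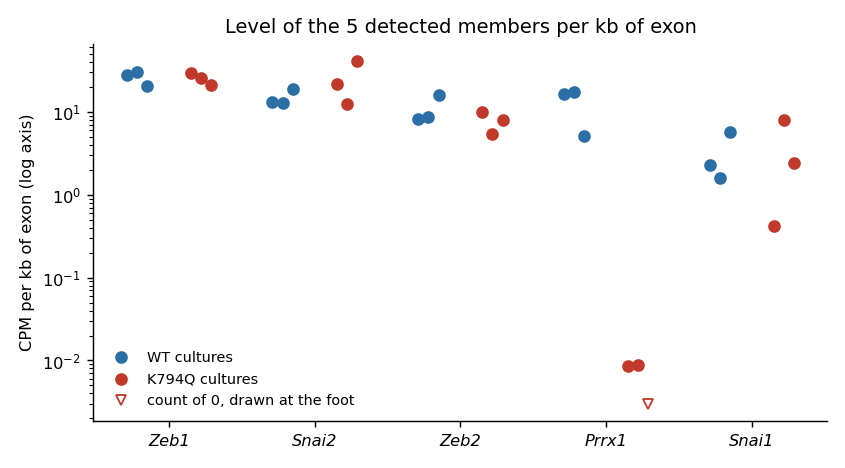
Level of the 5 members with reads, in CPM per kb of annotated exon on a log axis, for WT (blue) and K794Q (red) cultures, with one point per culture. The open triangle is K794Q C, whose Prrx1 count was 0 and is drawn at the foot; Prrx1 lies between 5.10 and 17.5 in WT cultures, among the other members, and below all of them in K794Q cultures.

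Most genes annotated over the members had no row under their symbol in the count table, so their reads are not known. Those with a row had few reads. Gm10125, on the opposite strand at Zeb1, had 2 to 6 counts and the microRNA gene Mir5129 within Zeb2 had 0 to 2. The antisense genes Gm20471 at Prrx1 and Zeb2os at Zeb2 had no row. The same held for Gm26523 and Gm37644, which lie within Prrx1 on its own strand. The strand setting of the counting is not given in the sources used here, so reads of a member and of an antisense partner cannot be told apart.

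The 5 tested genes whose log2 CPM followed Prrx1 most closely over the 6 cultures were Mtmr11 (r = 0.999), Nol4 (0.997), Atg4b (0.995), Prnd (0.991) and Nefl (0.990). They were picked for this likeness and carry no test. Mtmr11, of the myotubularin family, was at 16.3, 14.2 and 9.60 CPM in WT A, B and C and stood at 1.54, 1.68 and 1.29 CPM in K794Q A, B and C. Prnd, which encodes the prion-like protein doppel, was at 15.6, 12.7 and 6.33 CPM in WT and at 0.385, 0.296 and 0.515 CPM in K794Q cultures. All 5 genes had their lowest WT value in WT C, as Prrx1 did. Nefl, the light neurofilament chain, was at 5.42 to 5.85 CPM in WT and had 1, 0 and 0 counts in K794Q cultures. Nol4 was at 2.71 to 4.29 CPM against 0.0859 to 0.197 CPM. Atg4b, a protease of autophagy, differed least, with 65.9 to 72.7 CPM in WT against 39.9 to 42.8 CPM in K794Q cultures.

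Of 47 other genes in the table whose annotated span reaches within 2 Mb of Prrx1 on chromosome 1, 23 were tested. Their log2 fold changes had a median of -0.52, against -0.24 for the 624 other tested genes of chromosome 1 and -0.02 for all tested genes, and 19 of the 23 were below 0. That is 82.6%, against 67.8% of the other genes of chromosome 1 and 51.6% of all tested genes. Groups did not overlap in 12 of the 23 (52.2%, against 27.6% of the rest of chromosome 1 and 16.6% of all tested genes), with K794Q below WT in 11 (47.8%, against 21.2% and 8.12%). Gorab, a Golgi protein gene whose start is 90.0 kb from that of Prrx1, was at 46.3, 49.7 and 35.7 CPM in WT and 32.3, 43.7 and 28.9 CPM in K794Q A, B and C, overlapping groups with a log2 fold change of -0.33 ± 0.23 (SE). The number below 0 was 18 to 21 of 23 with any single culture left out, and the median ran from -0.52 to -0.43.

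Of these 23 neighbours 4 (17.4%) passed both thresholds, against 5.19% of all tested genes. Slc19a2, a thiamine transporter, was higher in K794Q cells, at 25.1, 27.5 and 28.8 CPM against 3.23, 3.49 and 11.7 CPM in WT A, B and C, with a log2 fold change of 2.13 ± 0.54 (SE, edgeR quasi-likelihood adjusted p = 0.228). The antioxidant enzyme gene Prdx6 was lower, at 158, 175 and 169 CPM against 226, 297 and 1603 CPM, and its log2 fold change of -2.08 ± 0.78 came to -0.63 without WT C. Tnfsf18, a ligand of the tumour necrosis factor family, was lower by a log2 fold change of -1.77 ± 0.63 and Mettl13, a methyltransferase gene, by -1.03 ± 0.37. Their adjusted p-values in edgeR were 0.421 for Prdx6, 0.397 for Tnfsf18 and 0.406 for Mettl13. Each of Prdx6, Tnfsf18 and Mettl13 passed both thresholds in only 2 of 6 leave-one-out fits, and Slc19a2 in 6 of 6, at 3.02 without WT C.

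**Figure D4:**
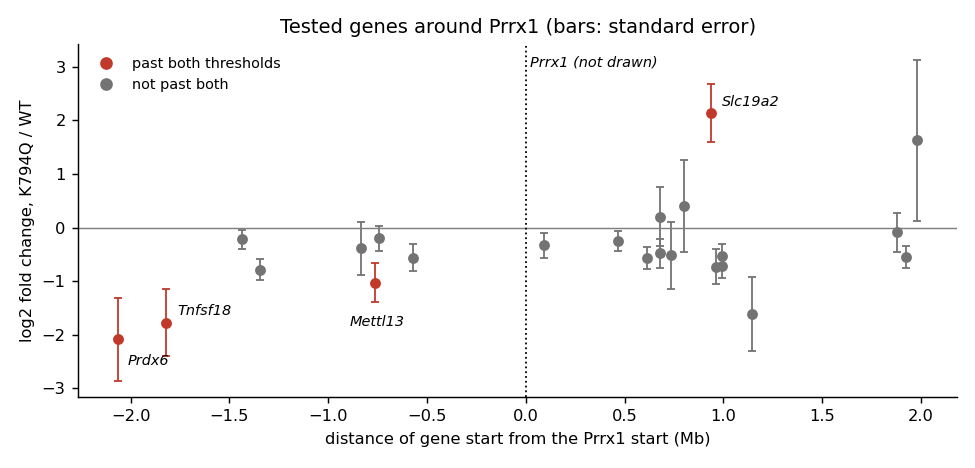
Log2 fold change (K794Q over WT) with bars of 1 standard error for the 23 tested genes around Prrx1, against the distance of their starts from the Prrx1 start in Mb. Red points passed both thresholds; 19 of 23 points lie below 0, and Prrx1 itself is not drawn because its fold rests on 2 K794Q counts.

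Around the members, 11 lists of related genes were read in the same fit, and 6 of their 96 tested genes passed both thresholds. This share of 6.25% is near the 5.19% of all tested genes, so the called genes are named as single genes and not as a change of the lists. Among 40 other mesenchymal transcription factors, 11 were tested, 1 was lower and 1 higher. Foxc2, a forkhead factor of mesenchyme and lymphatic vessels, was at 12.4, 13.6 and 33.7 CPM in WT and at 3.65, 4.34 and 3.86 CPM in K794Q cultures. It was lower in every K794Q culture, with a log2 fold change of -2.33 ± 0.45 (SE, edgeR quasi-likelihood adjusted p = 0.136), and -1.70 without WT C. Foxf1, a forkhead factor of mesoderm and lung vessels, was higher, at 1.35, 2.96 and 2.06 CPM in K794Q and 0.175, 0.499 and 0.765 CPM in WT cultures (log2 fold change 2.10 ± 0.64, adjusted p = 0.306). Its WT values rest on 2, 5 and 11 counts in A, B and C, near the floor, so the size of this fold is uncertain. The call of Foxf1 was lost without WT B, and its fold was 2.64 without WT C. The list's median was 0.40. Its count moved from 2 to 7 (5 higher, 2 lower) without K794Q B and to 4 (3 higher, 1 lower) without WT C. Tbx2, a T-box repressor, was one of those that joined without K794Q B, with 36.4, 28.9 and 11.4 CPM in WT A, B and C and 116, 0.887 and 145 CPM in K794Q A, B and C. Sox9, a chondrocyte factor, was at 28.8 CPM in K794Q B and at or below 1.18 CPM in the other 5 cultures. Over all cultures its log2 fold change was 3.23 ± 2.04 (SE) and it did not pass the thresholds. Without K794Q B it was -4.20 ± 0.93, and Sox9 was 1 of the 2 called lower, at a level near the floor.

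The matrix and surface genes that mark mesenchymal cells gave 17 tested genes of 32, of which 1 was higher and 2 were lower in K794Q cells, with a median of -0.44. The count was 5 without K794Q B (2 higher, 3 lower) and 5 without WT C (3 higher, 2 lower). Vcan, the proteoglycan versican, was at 35.1, 32.5 and 3.48 CPM in WT and at 1.06, 0.0986 and 0.859 CPM in the K794Q cultures. The fit gave -5.11 ± 1.12 on the log2 scale (SE, adjusted p = 0.168 in edgeR). The matrix protein gene Fbln2 was at 14.5, 20.3 and 279 CPM in WT and at 1.35, 6.41 and 0.515 CPM in K794Q cultures, a log2 fold change of -5.25 ± 1.58 (adjusted p = 0.303) that was -2.65 without WT C and -6.83 without K794Q B. The Fbln2 call was lost without K794Q A. Loxl2, a lysyl oxidase-like enzyme that cross-links collagen, was higher, at 28.8, 15.4 and 25.9 CPM in K794Q against 1.75, 2.40 and 9.60 CPM in WT cultures (2.33 ± 0.70, adjusted p = 0.299), and 3.50 without WT C. The groups of Vcan, Fbln2 and Loxl2 did not overlap. Vcan kept its call in all 6 fits without a culture, with folds from -5.60 without WT C to -4.60 without K794Q B.

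The list was split between genes with many reads and genes with few or none, and the following are examples of each, chosen after their values were seen. Sparc, a collagen-binding matrix protein gene, was at 2080, 2122 and 2310 CPM in WT A, B and C and at 1710, 3395 and 2036 CPM in K794Q A, B and C. Ddr2, a collagen receptor, was at 206, 218 and 56.3 CPM in WT and 52.6, 0.690 and 34.5 CPM in K794Q cultures, and Col5a2 at 175, 174 and 477 CPM and 67.0, 0 and 213 CPM. Neither Ddr2 nor Col5a2 passed the thresholds over all cultures, and both were lowest in K794Q B. The groups of Ddr2 did not overlap, with a log2 fold change of -2.45 ± 1.24 (SE), and those of Col5a2 did. Without K794Q B, Ddr2 was called lower, at -1.87 ± 0.64 (SE). In contrast, Postn, Lum, Dcn, Thy1 and Col6a2 had 0 counts in every library, and Acta2, the smooth muscle actin gene, had none except in WT C, at 1.18 CPM. Col1a1 was at 0.0874, 0.0998 and 5.91 CPM in WT A, B and C and at 0.288, 0.197 and 1.46 CPM in K794Q cultures. Vim, the intermediate filament gene of both endothelial and mesenchymal cells, was at 1375 to 4679 CPM in all cultures, with a log2 fold change of 0.00 ± 0.56 (SE). WT C had the highest value of the 6 for Fn1, the fibronectin gene (5825 CPM against 171 to 1735 CPM elsewhere), and for Pdgfra (16.4 against 0.296 to 2.31 CPM). Without WT C the log2 fold change of Fn1 went from -1.27 to 2.31. That of Cdh2, the N-cadherin gene, went from -0.44 to 2.13. Both genes passed both thresholds as higher in K794Q cells in that fit only. Why WT C differed was not tested.

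Epithelial genes, on which Snail and Zeb proteins act as repressors, were mostly without reads in both groups. Of 30, 4 were tested and 0 passed both thresholds in edgeR, 0 reached an unadjusted p of 0.05, and DESeq2 called 0. Of all 11608 tested genes, 1180 reached an unadjusted p of 0.05 in edgeR. Without K794Q A, Spint2, a protease inhibitor gene, was called higher, with a log2 fold change of 2.16 ± 0.47 (SE). Cdh1 had 0 counts except in WT C, at 0.0696 CPM, and Epcam, a surface protein of epithelia, had none in any library. Jup, the junction protein plakoglobin that endothelium shares, made up most of the summed level, at 249 to 759 CPM in WT and 559 to 1029 CPM in K794Q cultures.

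The E proteins, which pair with Twist factors, and the Id inhibitors gave 6 tested genes of 7 with 0 past both thresholds in edgeR, 0 at an unadjusted p of 0.05 or less and 0 in DESeq2. Without K794Q C, Id3 was called lower, with a log2 fold change of -1.28 ± 0.35 (SE). Tcf4 was at 764, 836 and 903 CPM in WT and 641, 731 and 619 CPM in K794Q cultures (log2 fold change -0.33 ± 0.21, SE). Corepressors and chromatin enzymes that Snail and Zeb proteins recruit were all tested, 14 of 14. None passed both thresholds (0 in edgeR and 0 in DESeq2), and 1 reached an unadjusted p of 0.05, the histone demethylase gene Kdm1a with -0.56 ± 0.20. With 1180 of all 11608 tested genes at that p in edgeR, 1 of 14 is not read as a change of the list. Regulators of Snail protein stability, 9 of 9 tested, gave 0 past the thresholds, 0 at an unadjusted p of 0.05 or less and 0 in DESeq2, with a median of -0.01.

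Among genes of the signals that induce these factors (transforming growth factor β, bone morphogenetic protein and hypoxia), 14 of 15 were tested and 1 passed both thresholds. This was the ligand gene Tgfb3, at 2.71, 0.899 and 9.25 CPM in WT and 0.962, 0.887 and 1.20 CPM in K794Q cultures. The groups overlapped, the log2 fold change was -2.07 ± 0.85 (SE, edgeR quasi-likelihood adjusted p = 0.483), and it was -0.81 without WT C. The call was kept in 1 of 6 leave-one-out fits, that without WT B. Without WT C, Hmga2 was called higher, at 1.91 ± 0.68 (SE) on the log2 scale against 0.04 over all cultures. Tgfb1 was at 244, 241 and 118 CPM in WT and 135, 146 and 157 CPM in K794Q cultures and did not pass (-0.46 ± 0.30). Among the 20 endothelial markers 0 passed both thresholds in edgeR and 0 in DESeq2, and 1, the transcription factor gene Fli1 (0.89 ± 0.26), reached an unadjusted p of 0.05. Set beside 1180 of all 11608 tested genes at that p in edgeR, nothing is read from this 1 of 20. Without K794Q B 1 marker was called lower (Sox7), and without WT C 2 were, Fli1 higher and Cldn5 lower. The fold of Cldn5 over all cultures, -3.64 ± 1.81 on the log2 scale, was the furthest from 0 in the list. The same edgeR counts were 0 and 0 for Cd68, the tested leukocyte marker, with 0 in DESeq2.

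**Figure D5:**
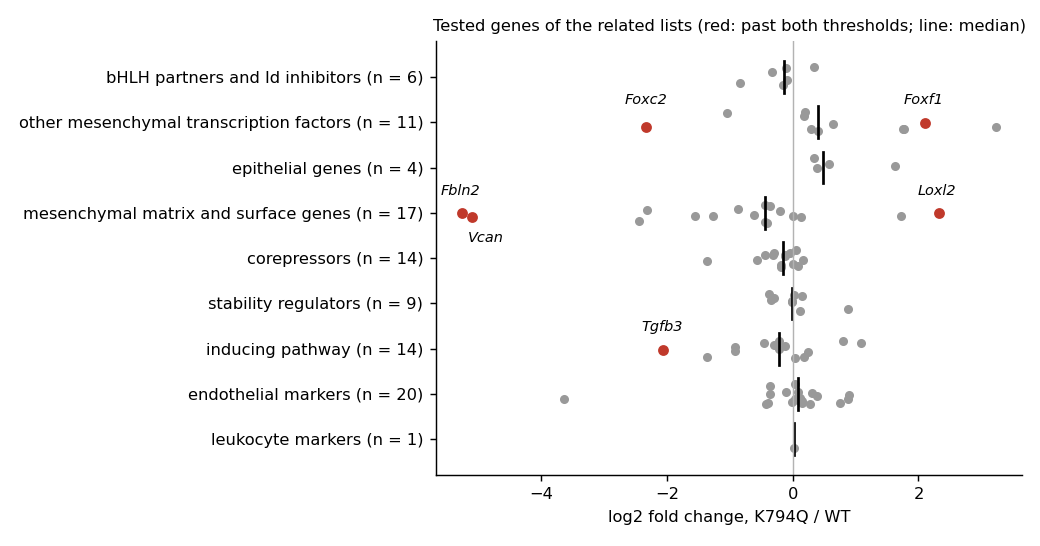
Log2 fold change (K794Q over WT) of every tested gene in the 9 related lists that had one, a point per gene and a black line at each list's median. Red points passed both thresholds: Foxc2, Vcan, Fbln2 and Tgfb3 lie at -2.07 or below, and Foxf1 and Loxl2 at 2.10 and 2.33.

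MicroRNAs of the miR-200 family bind Zeb1 and Zeb2 transcripts and lower their level in epithelia. They fall into groups by seed (bases 2 to 8, in capitals), AACACUG for miR-141 and miR-200a and AAUACUG for miR-200b, miR-200c and miR-429. One mature form of each group is shown from RefSeq (GRCm38.p6) because the seed is what pairs with Zeb transcripts.
miR-200a-3p, chr4:156054911-156054932, minus strand: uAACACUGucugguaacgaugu
miR-200b-3p, chr4:156055685-156055706, minus strand: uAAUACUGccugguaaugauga
All 6 of the genes of this list found in the table, these 5 and Mir205, had 0 counts in every library. Libraries of this kind do not measure mature microRNAs, so the counts say nothing of their level.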

How the data were processed

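The deposited table holds raw read counts per gene symbol for the 6 libraries, made by the authors. Per the submitters' processing notes, bcl2fastq 2.20.0, STAR 2.7.4a, HTSeq 0.9.1 and edgeR 3.38.4 were used with mm10; annotation and strand setting are not given in the sources used here. Counts were fitted for the 23420 symbols in edgeR 4.0.16 (R 4.3.3) with TMM normalization, the default expression filter and the quasi-likelihood test, K794Q against WT, over all 6 libraries; 11608 genes were tested (common dispersion 0.186). Called genes had a fold change threshold of 2 together with a threshold of 0.05 on the unadjusted p, and numbered 603 (404 higher, 199 lower). Benjamini-Hochberg adjusted p-values reached 0.05 for 21 genes. CPM are counts per 1e+06 of the TMM-adjusted library total. The fit was tested on simulated counts. The cultures are separate by the series text, and p-values measure the spread between them. The paper describes cultures of sorted, stably transfected cells and no separate transfections for the replicates. An effect of the mutation and a difference between the transfected cell lines therefore cannot be told apart.

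The members and gene lists were chosen with earlier results of these data known. Named genes are all 8 members, the called genes of each list with a mean of at least 1 CPM (up to 4 per direction), genes overlapping a member, the 5 genes most correlated with Prrx1, up to 4 called genes within 2 Mb of it, and defining markers at 0. Others named (Sox9, Fn1, Cdh2, Pdgfra, Vim, Jup, Spint2, Tcf4, Id3, Tgfb1, Hmga2, Kdm1a, Fli1, Col1a1, Cdh1, Acta2, Cd68, Csf1r, Cldn5, Sox17, Vwf, Sox7, Tbx2, Sparc, Ddr2, Col5a2, Postn, Lum, Dcn, Thy1, Col6a2, Epcam, Gorab, Ttll7, Pecam1, Cdh5) were chosen after their values were seen. Positions and exon lengths come from GENCODE M21 (GRCm38), where 21777 symbols matched directly and 1260 through a RefSeq synonym. The ratio of Prrx1 has an exact binomial interval. Alternatives were no filter, at least 10 counts in every culture, RLE scaling, library totals, a likelihood ratio test, DESeq2 1.42.0, a replicate block and leaving out each culture. Figures and tables were made in Python 3.11.15.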

Additional observations from a re-analysis of the deposited data

How the results depend on the processing

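Prrx1 was past both thresholds in all 12 alternative fits that tested it, and was not tested where at least 10 counts were required in every culture, which left 0 members called. These fits reuse the counts on which the members were chosen, so they show the effect of settings and carry no test of Prrx1. With single cultures left out, 1 to 2 members were called, the second being Snai2 without K794Q B. The log2 fold change of Snai1 was -0.51 with a replicate block and -1.17 to 0.91 over the fits without a culture, and that of Zeb1 was -0.19 to 0.068; the cause was not tested. The genes called numbered 603, 916 with no filter on low counts, 425 with at least 10 counts in every culture, 727 by the likelihood ratio test, 695 by DESeq2, which gave no p for 121 genes (Fbln2 among them), and 501 to 992 without a culture. The list genes called numbered 6, 10 with no filter, 2 with at least 10 counts in every culture and 5 to 13 without a culture. The 3 members at 0 are limited by depth.

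Culture letters are shared between the groups, but same-lettered cultures deviated together only weakly (r = 0.09, 0.05 and 0.10 for A, B and C). Such a correlation cannot settle whether they share more than a letter. With the letter as a replicate block, 571 genes, 1 member and 4 list genes were called, and Fbln2, Prdx6 and Tgfb3 lost their calls (log2 fold changes -4.17, -1.46 and -1.55).

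The counts of genes below 0 around Prrx1 were added after seeing the data. They were 18 or more of 23 in every fit that kept all 23, and 18 of 21 with at least 10 counts in every culture.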
